A study of Mus musculus with 12 samples.

Results

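The vascular and positional transcription factor families were followed in cultured mouse aortic endothelial cells that carry or lack Ets1 and Ets2. The members are genes whose symbol in the platform annotation starts with Klf, Sox, Foxa to Foxs, Gata, Hoxa to Hoxd, Tbx, Meox, Mef2, Twist or Prrx, or is that of an Id, Hes1 or Hey factor. They were 88 of 11015 genes. Of these, 80 are factors of the families: 23 Fox, 17 Hox, 13 Klf, 8 Sox, 4 Mef2, 4 T-box, 3 Id, 2 Hes and Hey, 2 Prrx, 2 Twist, 1 Gata and 1 Meox gene. The other 8 share only the letters of a family name: Gatad1, Gatad2a, Gatad2b, Foxred1, Foxred2, Tbxa2r, Twistnb and Hoxb5os. The rule for the members used no measured value, but the members were chosen with earlier results of these data known. The endothelial factors Sox7, Sox17, Sox18, Hey2 and Heyl were not analysed here.

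RNA came from aortic endothelial cells of mice aged 4 weeks and was read on Affymetrix arrays. Cells labelled Ets1/2 null and Ets2 null received a lentivirus with egfp and the Cre recombinase, and Ets1 null and wild-type cells a lentivirus with egfp alone. The genotypes given were Ets1-/- with floxed Ets2 plus Cre for the arrays labelled Ets1/2 null, Ets1-/- with floxed Ets2 for Ets1 null, Ets1+/+ with floxed Ets2 plus Cre for Ets2 null, and Ets1+/+ with Ets2+/+ for wild type. Cre and Ets2 loss therefore cannot be told apart, and the floxed Ets2 allele was also present in Ets1 null but not in wild-type cells. The Ets2 deletion was made in culture by the virus, and no promoter driving Cre and no share of infected cells is given in the sources used here. Each group has 3 columns, but the third column labelled Ets1/2 null was the mean of the other two in 20521 of 20523 probe sets and was left out, which leaves 2 arrays labelled Ets1/2 null and 3 in each other group. The labels call the arrays of a group biological replicates without saying that each came from its own animal, so each p-value speaks of array-to-array spread, which may be technical.

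Most of these families decide how a vessel cell behaves or where in the body it belongs. KLF2, KLF4 and FOXO1 are known regulators of quiescent endothelium, MEF2C acts downstream of shear stress, HES and HEY proteins carry Notch signals, and ID proteins, which lack a DNA-binding region, hold E proteins away from DNA and are classic targets of BMP signalling. Hox, T-box, Prrx and several Fox genes keep a record of the embryonic region a cell came from and stay on in cultured cells. ETS proteins bind a GGAA core, and many endothelial enhancers pair such a core with a forkhead or GATA motif.

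Promoters are shown for 4 members on which the results turn: Id2, with the widest interaction among called members, Mef2c, with the widest difference from wild type among called members, and the paired Foxo1 and Foxo3. The runs are the 250 bases upstream of the RefSeq start in GRCm38.p6, 5′ to 3′ on the gene's strand, with any GGAAGT, an ETS core with its flanking bases, in capitals on either strand (ACTTCC is its reverse). Id2 lies on the minus strand at chr12:25096093-25096342, Mef2c on the plus strand at chr13:83503784-83504033 for the first of 3 starts, Foxo1 on the plus strand at chr3:52268087-52268336 and Foxo3 on the minus strand at chr10:42276696-42276945.
Id2: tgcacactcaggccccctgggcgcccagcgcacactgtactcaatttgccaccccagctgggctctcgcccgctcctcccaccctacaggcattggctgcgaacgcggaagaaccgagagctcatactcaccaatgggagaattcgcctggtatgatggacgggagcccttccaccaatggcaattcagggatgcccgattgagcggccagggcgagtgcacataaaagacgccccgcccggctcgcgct
Mef2c: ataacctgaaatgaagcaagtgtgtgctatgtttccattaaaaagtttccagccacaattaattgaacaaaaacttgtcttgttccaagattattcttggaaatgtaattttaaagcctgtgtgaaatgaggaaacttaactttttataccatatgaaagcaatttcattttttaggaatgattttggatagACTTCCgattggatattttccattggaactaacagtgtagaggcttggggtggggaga
Foxo1: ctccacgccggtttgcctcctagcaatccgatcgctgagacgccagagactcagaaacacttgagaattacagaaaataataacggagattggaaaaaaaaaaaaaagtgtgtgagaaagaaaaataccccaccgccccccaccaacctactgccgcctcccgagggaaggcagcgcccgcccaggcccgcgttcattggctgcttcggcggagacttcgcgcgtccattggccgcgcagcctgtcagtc
Foxo3: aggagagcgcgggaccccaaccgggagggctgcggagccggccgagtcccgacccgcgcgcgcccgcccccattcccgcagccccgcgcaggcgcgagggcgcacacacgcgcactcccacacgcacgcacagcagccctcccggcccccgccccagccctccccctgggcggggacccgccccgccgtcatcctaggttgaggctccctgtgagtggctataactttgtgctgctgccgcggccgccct
The shorter GGAA core occurs on at least 1 strand of each of these 4 windows and was not marked. Of the 4, only the window of the first Mef2c start holds GGAAGT, on its minus strand and beginning 58 bases upstream. The windows of the 2 other Mef2c starts, not printed, hold none. The motif was in 11 of 66 promoters of the 56 members that the table holds (16.7%), against 19.7% of all 32851 promoters.

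Values are log2 signals with the array's own median over the 11015 genes brought to a common level, and a gene was called at a limma Benjamini-Hochberg adjusted p under 0.05 over all 11015 genes. Errors are standard errors of the fit. Before centring, the medians of the 2 arrays labelled Ets1/2 null were 8.73 and 8.69, against 9.37 to 9.50 in the other 9 arrays, so each member is also judged on the deposited values. Centring moved the median difference between the labelled Ets1/2 null and wild-type arrays to 0.11, against -0.61 as deposited. Unless deposited values are named, a call or the lack of one refers to centred values. The brightest Ets1 probe set read 10.60 and 10.91 in the arrays labelled Ets1/2 null, 8.15, 8.60 and 8.99 on Ets1 null arrays, 9.40, 9.47 and 9.74 on Ets2 null arrays and 10.20, 9.72 and 9.87 in wild-type arrays. The brighter Ets2 probe set read 11.59 and 10.25, 10.12 to 10.36, 9.26 to 9.99 and 9.66 to 10.51 in the same order of groups. Of 4 Ets1 probe sets, 3 had their highest group mean in the arrays labelled Ets1/2 null on centred values and 1 of 4 on deposited values (means of 10.16 there and 10.05 in wild type for the brightest). The same 3 had a higher mean there than in Ets1 null on both scales, and the fourth, a dimmer one, had its lowest mean there (7.06 and 7.67, against 7.56 to 8.66 in the other 9, centred). These 3 probe sets go against a label of Ets1-/-, the fourth does not, and whether the probe sets lie in the deleted parts is not given, so every direction involving that group is a direction for arrays so labelled. Eif2s3y, a Y-linked gene, was bright on 4 arrays, the 3 of Ets2 null and the first of wild type, which were taken as male, and the other 7 as female. Endothelial markers were in part on the table (8 of 20, with Pecam1, Cdh5, Tek and Vwf not among them), and their mean signal was 8.52 to 9.20 in labelled Ets1/2 null, 8.29 to 8.61 on Ets1 null arrays, 9.73 to 10.18 on Ets2 null arrays and 9.28 to 10.04 in wild-type arrays. In bulk RNA, fewer cells of a type and less RNA per cell cannot be told apart.

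Against wild type, the arrays labelled Ets1/2 null had 17 of the 88 members called (19.3%), 10 higher and 7 lower, where 28.3% of all genes were called. Against Ets1 null they had 16 (18.2%, 8 higher and 8 lower; all genes 28.7%), and against Ets2 null 23 (26.1%, 12 higher and 11 lower; all genes 30.3%). The members were thus called no more often than genes at large. Requiring the call on deposited values too left 9, 8 and 13 members, against 14.3%, 13% and 16.2% of all genes. Of those, 2 (Foxo1 and Mef2c), 0 and 2 (Foxd1 and Foxf2) were higher, as were 2.32%, 1.72% and 3% of all genes. The loss of 1 Ets gene alone had no member called: 0 of 88 in Ets1 null against wild type (7 at an unadjusted p under 0.05; 0.00908% of all genes called) and 0 of 88 in Ets2 null (15 at an unadjusted p under 0.05; 0.436% of all genes called). The F test over the 4 groups called 19 members (21.6%) and 30.6% of all genes.

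**Figure D1:**
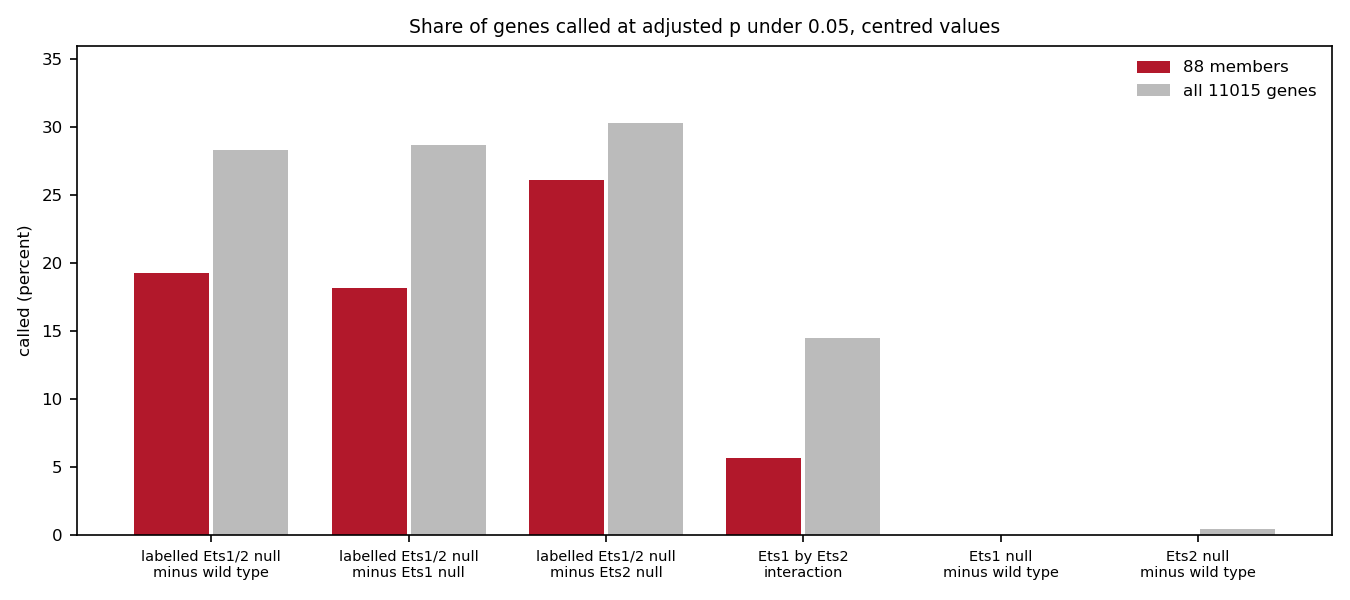
Percent of genes called at an adjusted p under 0.05 in each comparison (vertical axis) for the 88 members and for all 11015 genes. The member bars lie below those of all genes in the first 4 comparisons, such as 19.3% against 28.3% for the arrays labelled Ets1/2 null against wild type, and both Ets1 null and Ets2 null against wild type have 0 members.

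Against at least 1 of the 3 groups 30 members were called (34.1%, against 42.6% of all genes), and 9 were called against all 3 in one direction: Foxj3, Foxo1, Foxo3 and Gatad2b higher in the arrays labelled Ets1/2 null, and Foxk2, Foxl1, Gatad2a, Id1 and Klf16 lower (10.2% of the members, against 17.2% of all genes). The 5 lower ones were called on the deposited values as well, as was every gene called lower on centred values. Those were 1317 genes against wild type, 1241 against Ets1 null and 1454 against Ets2 null. For a lower gene, a call on both scales therefore adds nothing to the centred one. The calls of Foxred1, Hey1, Klf14, Klf7, Hoxa3 and Sox13 against wild type were lost in 8 to 10 of the 11 fits that left out 1 array. Of the calls, 6 of 17 against wild type held in all 11 such fits (Foxj3, Gatad2a, Gatad2b, Id1, Klf16 and Mef2c), 6 of 16 against Ets1 null (Foxj3, Gatad2a, Gatad2b, Id1, Klf16 and Sox21) and 5 of 23 against Ets2 null (Foxf2, Gatad2b, Hoxc9, Id1 and Klf16). Each other call was lost in at least 1.

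**Figure D2:**
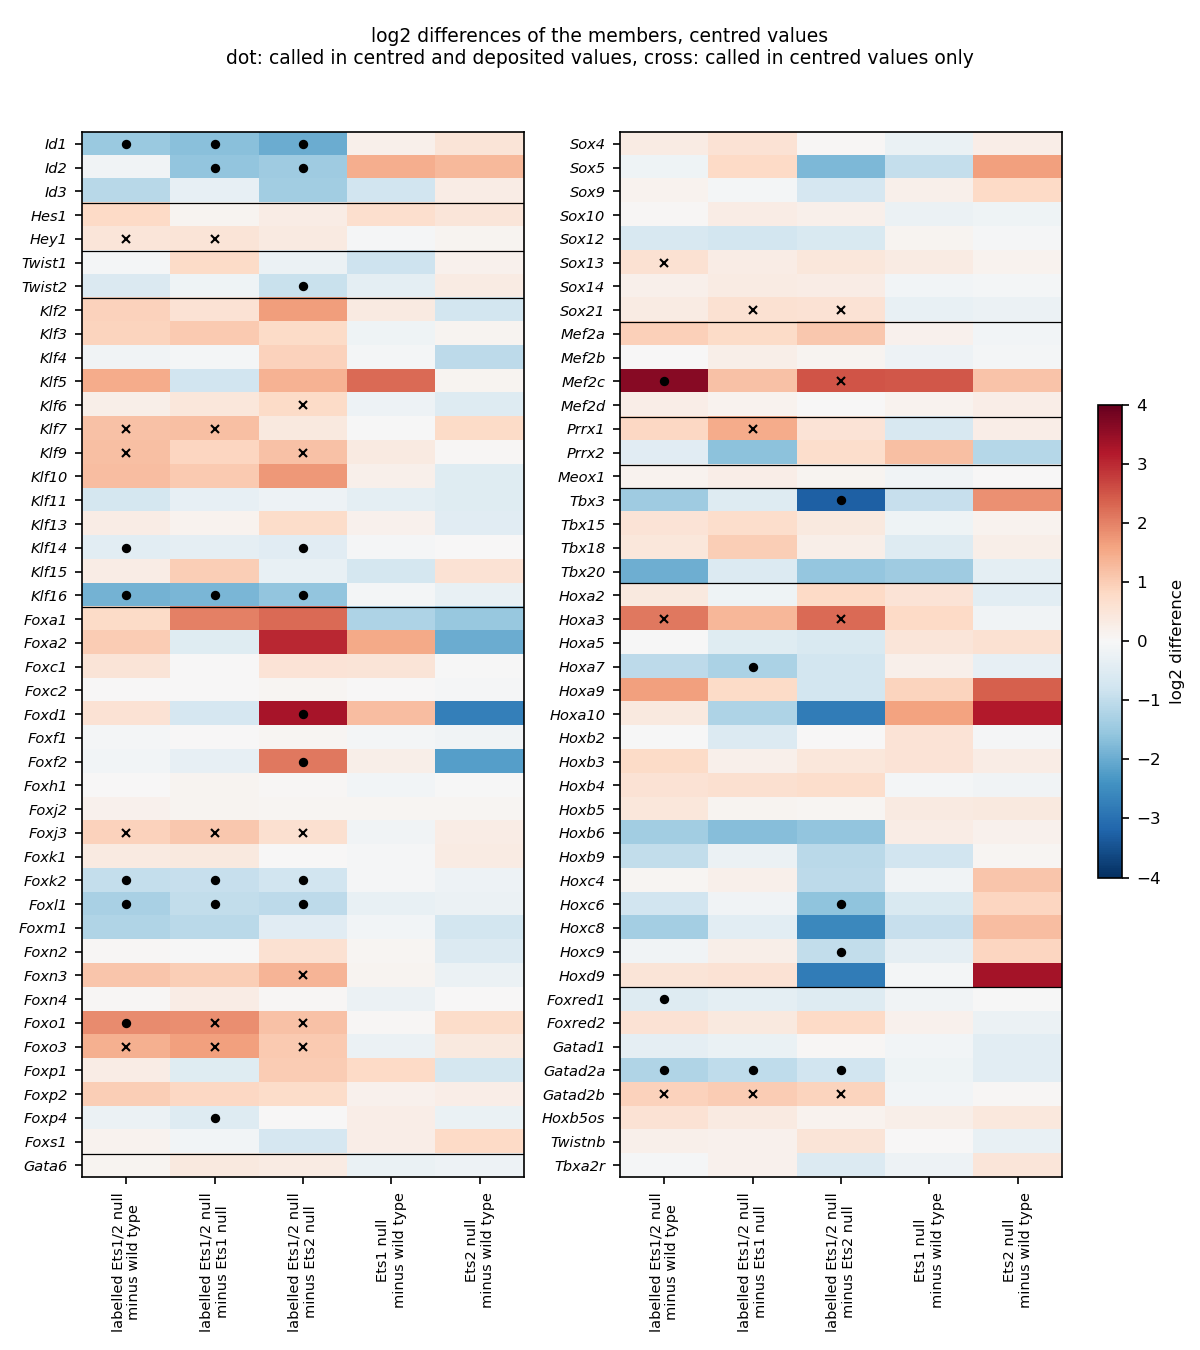
log2 differences (colour, -4 to 4) of the 88 members, grouped by family, in 5 comparisons. Id1, Klf16, Foxk2, Foxl1 and Gatad2a carry dots, for calls on both scales, in the 3 columns of the arrays labelled Ets1/2 null, and the columns of Ets1 null and Ets2 null against wild type carry no mark.

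Id1 and Id2, the inhibitors of basic helix-loop-helix factors, showed different patterns. Id1 read 9.48 and 9.75 in the arrays labelled Ets1/2 null, 11.58, 11.35 and 10.95 on Ets1 null arrays, 11.41, 11.87 and 11.51 on Ets2 null arrays and 11.45, 11.12 and 10.69 in wild-type arrays. Both labelled Ets1/2 null arrays were below all 9 others, with differences of -1.47 ± 0.27 against wild type (adjusted p = 0.0044), -1.68 ± 0.27 against Ets1 null (0.0028) and -1.98 ± 0.27 against Ets2 null (0.0011). These calls held on deposited values and without any 1 array.

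Id2 read 9.40 and 9.31 in the arrays labelled Ets1/2 null, 11.63, 10.84 and 10.36 on Ets1 null arrays, 11.20, 10.57 and 10.53 on Ets2 null arrays and 9.12, 9.71 and 9.62 in wild-type arrays. All 6 single-null arrays were above all labelled Ets1/2 null and wild-type arrays. The labelled Ets1/2 null arrays differed from Ets1 null by -1.59 ± 0.36 (adjusted p = 0.0118) and from Ets2 null by -1.41 ± 0.36 (0.0182), both on both scales, while their difference from wild type was -0.13 ± 0.36 (0.822). The call against Ets1 null was lost without the second labelled Ets1/2 null array (adjusted p = 0.0578), and that against Ets2 null without either labelled Ets1/2 null array or the first Ets2 null array (up to 0.0804). Ets1 null was 1.46 ± 0.32 above wild type (0.278) and Ets2 null 1.28 ± 0.32 above it (0.0999), neither of which was called. A second Id2 probe set gave -1.37 ± 0.45 against Ets1 null and -1.21 ± 0.45 against Ets2 null.

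Id3, the brightest of the 3, was not called in any comparison on centred values, and its 2 labelled Ets1/2 null arrays differed from each other: 11.63 and 9.36, with 10.85, 11.48 and 10.15 on Ets1 null arrays, 11.26, 12.19 and 12.25 on Ets2 null arrays and 12.38, 11.60 and 10.79 in wild type. Its differences were -1.09 ± 0.71 against wild type, -0.33 ± 0.71 against Ets1 null and -1.40 ± 0.71 against Ets2 null. On deposited values it was called lower than in Ets2 null (-2.11, adjusted p = 0.0339), where the median over all genes was -0.57.

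**Figure D3:**
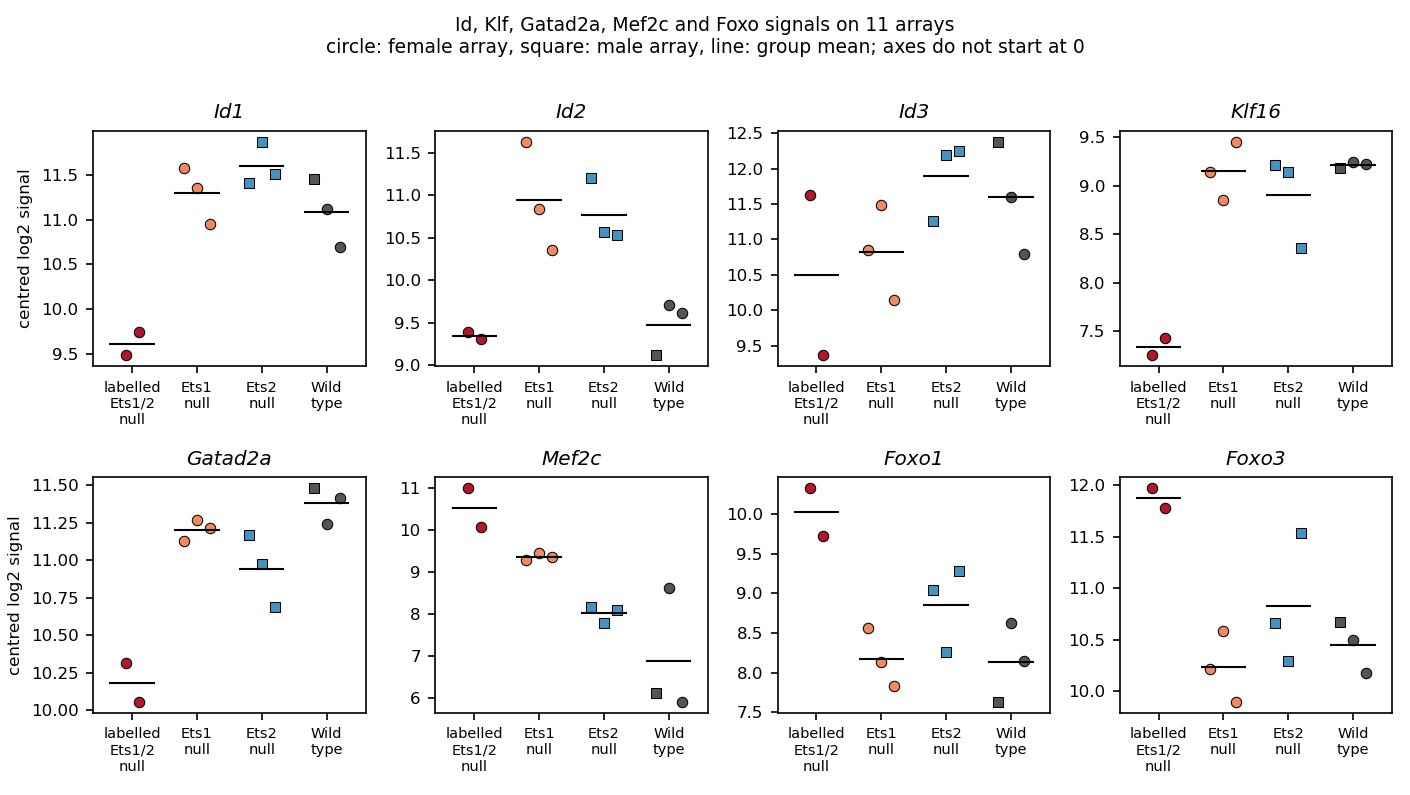
Centred log2 signals (vertical axes, not starting at 0) of 8 members on 11 arrays, 1 point per array (circles female, squares male) with a line at each group mean. Id1, Klf16 and Gatad2a lie lower in both arrays labelled Ets1/2 null than in all others, Id2 lies high in the 6 single-null arrays, and Mef2c, Foxo1 and Foxo3 lie highest in the arrays labelled Ets1/2 null.

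The E proteins that ID proteins bind were measured for 3 of the 10 genes on a list of E proteins and partners. Tcf3 (E2A) read 9.06 and 9.25 in the arrays labelled Ets1/2 null, against 10.88 to 11.42 in the other 9. Its differences were -2.09 ± 0.15 against wild type (adjusted p = 0.00014), -2.18 ± 0.15 against Ets1 null and -1.87 ± 0.15 against Ets2 null. Tcf4 (E2-2) was also lower, with differences of -1.09 ± 0.29, -1.05 ± 0.29 and -1.72 ± 0.29 against wild type, Ets1 null and Ets2 null (adjusted p = 0.0212, 0.0249 and 0.00299), and both were called on deposited values. Tcf12 differed from wild type by -0.33 ± 0.18 and was not called in any of the 3 on centred values. On deposited values it was called lower in each (-1.05, -0.72 and -0.90). The genes that code for the inhibitor Id1 and for 2 of its partners were lower in the same arrays, as were 12% of all genes against wild type. A link between them was not tested.

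Of the BMP receptors, Smads and inhibitors, 18 of 24 listed genes were measured. Against wild type 6 were higher (Bmpr1a, Bmpr2, Acvr1, Smad4, Smad7 and Chrd) and 1 lower, where 16.4% of all genes were called higher and 12% lower, with a list median of 0.52 against 0.11 over all genes. The lower one was Smad5, a signal carrier of BMP receptors, at 7.82 and 7.70 in the labelled Ets1/2 null arrays and 9.29 to 10.32 in the other 9 (-1.89 ± 0.19 against wild type, adjusted p = 0.00037). Bmpr2, the type II receptor, differed from wild type by 1.66 ± 0.30 (adjusted p = 0.0044). Only Bmpr2 and Smad5 of these 7 were also called on deposited values.

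Twist2, a mesenchymal helix-loop-helix factor, read 9.29 and 9.25 in the arrays labelled Ets1/2 null and 10.40, 9.74 and 10.38 on Ets2 null arrays. It was lower than in Ets2 null (-0.90 ± 0.24, adjusted p = 0.0229), on both scales. Its wild-type values were 9.55 to 10.21 and its Ets1 null values 9.34 to 9.57, with no call against either on centred values. On deposited values it was called lower than in both (-1.30 and -0.94). Twist1 lay between 9.11 and 10.20 in the labelled Ets1/2 null arrays and between 8.35 and 10.28 in the others, without a call.

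Hey1, a Notch effector below 7 on every array, was 0.47 ± 0.15 above wild type (adjusted p = 0.0478) and 0.53 ± 0.15 above Ets1 null (0.0315) in the arrays labelled Ets1/2 null, but at -0.25 and -0.23 on deposited values its direction turned. Hes1 read 8.51 and 8.64 in those arrays and 7.31 to 9.36 in the others, with no call. Of 12 measured genes of Notch ligands, receptors and partners, Maml1, a coactivator, and Numb, an inhibitor of the receptor, were higher than in wild type (0.89 ± 0.21 and 1.50 ± 0.21). Notch1, the receptor, was lower (-1.33 ± 0.20 against wild type, adjusted p = 0.00228), with -2.28 ± 0.20 against Ets2 null and -0.34 ± 0.20, not called, against Ets1 null. Maml1 was not called on deposited values. The other measured genes of this list were not called against wild type on centred values. Of all genes, 16.4% were called higher there and 12% lower.

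Among the 13 Klf genes, Klf16, a repressor of the family, had the lowest signal relative to wild type. It read 7.25 and 7.42 in the arrays labelled Ets1/2 null and 8.36 to 9.46 in the other 9, all of which were higher. The differences were -1.88 ± 0.27 against wild type (adjusted p = 0.0017), -1.81 ± 0.27 against Ets1 null (0.0020) and -1.57 ± 0.27 against Ets2 null (0.0032), on both scales and without any 1 array. Klf14, a dim gene, was also lower than in wild type (-0.42 ± 0.13, adjusted p = 0.0371) and Ets2 null (-0.45 ± 0.13, 0.0293).

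Klf9, a glucocorticoid-inducible factor, read 11.63 and 11.76 in the arrays labelled Ets1/2 null, 10.68 to 10.95 on Ets1 null arrays, 10.36 to 10.65 on Ets2 null arrays and 10.80, 9.74 and 10.89 in wild type. It was 1.22 ± 0.31 above wild type (adjusted p = 0.0178; lost without either labelled Ets1/2 null array) and 1.18 ± 0.31 above Ets2 null (0.0195), on centred values only. Klf7 was 1.17 ± 0.38 above wild type (0.0458) and 1.20 ± 0.38 above Ets1 null (0.0412), also on centred values only, and 2 of its 3 other probe sets had differences below 0. Klf6, a factor of injured endothelium, was called only against Ets2 null (0.76 ± 0.24, adjusted p = 0.0415, centred values only), and another Klf6 probe set gave -1.01 ± 0.29 there.

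The flow-responsive factors Klf2 and Klf4 were not called in any comparison. Klf2 read 9.96 and 10.22 in the arrays labelled Ets1/2 null, 8.15, 10.59 and 9.80 on Ets1 null arrays, 8.52, 9.31 and 7.46 on Ets2 null arrays and 9.93, 9.59 and 7.96 in wild type. Klf4 read 10.68 and 11.17, 11.75, 10.84 and 10.42, 10.29, 9.93 and 9.80, and 11.33, 11.21 and 10.66 in the same groups, so that the 3 Ets2 null arrays were the lowest (-1.06 ± 0.34 against wild type, adjusted p = 0.151). Of 13 measured KLF2 and KLF4 target genes, 1 was called against wild type, where 28.3% of all genes were. It was Thbd, which codes for thrombomodulin, at -3.30 ± 1.08 (adjusted p = 0.0476), while its difference from Ets1 null was 1.79 ± 1.08 (0.244) and that of Ets1 null from wild type -5.09 ± 0.96 (0.211). Klf5 had wide spread, from 6.85 to 10.54 in Ets2 null arrays alone, and its 2.28 ± 0.96 in Ets1 null against wild type was not called (0.564). Klf3, the brightest of the family, lay between 10.34 and 12.05 without a call.

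Foxo1 and Foxo3, effectors of insulin and growth factor signals, were higher in the arrays labelled Ets1/2 null than in each other group. Foxo1 read 10.33 and 9.73 there, 8.56, 8.14 and 7.83 on Ets1 null arrays, 9.04, 8.26 and 9.28 on Ets2 null arrays and 7.63, 8.63 and 8.15 in wild type. It exceeded wild type by 1.89 ± 0.39 (adjusted p = 0.0074), Ets1 null by 1.85 ± 0.39 (0.0085) and Ets2 null by 1.17 ± 0.39 (0.0479), of which the first was called on deposited values too. Without the first labelled Ets1/2 null array the calls against wild type and Ets1 null were lost (adjusted p = 0.0511 and 0.0596), and that against Ets2 null was lost in 8 of 11 fits that left out 1 array.

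Foxo3 read 11.97 and 11.78 in the arrays labelled Ets1/2 null, 10.21, 10.59 and 9.90 on Ets1 null arrays, 10.66, 10.29 and 11.54 on Ets2 null arrays and 10.68, 10.50 and 10.18 in wild type. Both labelled Ets1/2 null arrays were above the other 9, with the third Ets2 null array nearest to them. Its differences of 1.42 ± 0.35 from wild type (adjusted p = 0.0157), 1.64 ± 0.35 from Ets1 null (0.0090) and 1.05 ± 0.35 from Ets2 null (0.0487) were called on centred values only. The first was lost without either labelled Ets1/2 null array, the second without the first of them (adjusted p = 0.0507) and the third in 10 of 11 fits that left out 1 array. The 18 FOXO target genes were all measured, and against wild type 5 were higher and 0 lower, with a median of 0.69 against 0.11 over all genes and 16.4% of all genes called higher. The 5 were Ccng2, Pik3ip1, Sesn3, Insr and Pdk4, and Ccng2, a cyclin that rises on cell cycle exit, was the one also called on deposited values (1.99 ± 0.29, adjusted p = 0.0019).

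Foxk2, Foxl1 and Foxp4 were lower. Foxl1, a mesenchymal forkhead gene and dim here, read 6.28 and 6.32 in the arrays labelled Ets1/2 null and 7.0 to 8.21 in the other 9. It differed from wild type by -1.29 ± 0.29 (adjusted p = 0.0111), a call lost without either labelled Ets1/2 null array. Foxk2, a repressor of autophagy genes, read 9.42 and 8.98 against 9.55 to 10.30 elsewhere and differed from wild type by -0.96 ± 0.24 (0.0167). Of its 3 other probe sets 2 had the same sign, and 1 of these was called, at -2.30 ± 0.31. Without the second labelled Ets1/2 null array the Foxk2 call was lost. On centred values Foxp4 was called only against Ets1 null (-0.51 ± 0.16, adjusted p = 0.0386). On deposited values it was also called lower than in wild type (-0.96) and Ets2 null (-0.69). Foxn3, a checkpoint repressor, was called only against Ets2 null, where it was higher (1.35 ± 0.37, adjusted p = 0.0240, centred values only).

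Foxj3 shows what the choice of probe set does. Its brighter probe set was 0.92 ± 0.19 above wild type in the arrays labelled Ets1/2 null (adjusted p = 0.0071), with 1.07 ± 0.19 above Ets1 null and 0.64 ± 0.19 above Ets2 null, where the deposited difference was -0.069. The dimmer one gave -1.73 ± 0.21 against wild type, and each passed the test. No direction for the gene can be read from the pair. Of the 10 called members with several probe sets against wild type, 6 had another probe set called the same way (Foxk2, Foxo1, Gatad2a, Gatad2b, Klf9 and Mef2c) and Foxj3 the opposite way.

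**Figure D4:**
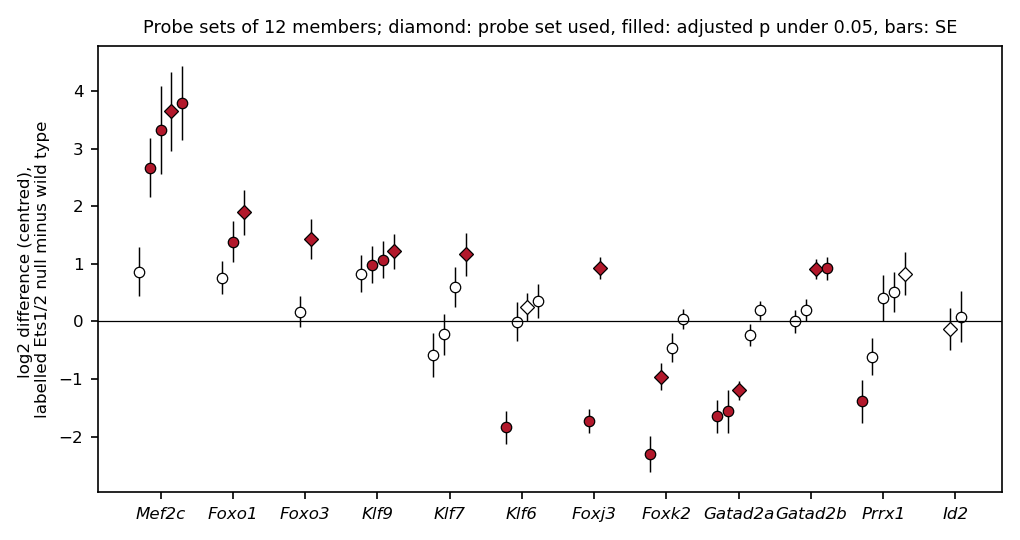
log2 differences of the arrays labelled Ets1/2 null minus wild type (vertical axis, bars are SE) for every probe set of 12 members, with a diamond for the one used and filled symbols where the adjusted p was under 0.05. Of 5 Mef2c probe sets 4 are filled above 0, while the filled symbols of Foxj3 lie at 0.92 and -1.73.

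Foxc1, Foxc2, Foxm1 and Foxp1 were not called against any group on centred values. On deposited values Foxm1 was called lower in the arrays labelled Ets1/2 null than in wild type (-1.91) and Ets1 null (-1.84). Foxp1 was called lower there than in Ets1 null (-1.25). Foxc2, the brightest of the 23 Fox genes, read 11.44 and 11.60 in the arrays labelled Ets1/2 null and 10.89 to 11.97 elsewhere (0.01 ± 0.37 against wild type). Foxc1 differed by 0.51 ± 0.49 and Foxp1 by 0.30 ± 0.37, although Foxp1 passed the F test over the 4 groups (adjusted p = 0.0350), with 11.32 to 12.34 on Ets1 null and 10.17 to 10.47 on Ets2 null arrays. Foxm1, which drives mitotic genes, read 8.76 and 8.04 in the labelled Ets1/2 null arrays, 9.10 to 10.06 on Ets1 null arrays, 9.61, 9.28 and 7.64 on Ets2 null arrays and 9.47 to 9.78 in wild type. None of 14 measured FOXM1 targets was called against wild type, where 28.3% of all genes were (median -1.19, against 0.11 over all genes). On deposited values Plk1 was called lower (-3.71, against a median of -0.61 over all genes). The mean signal of the 14 targets was 6.35 in the third Ets2 null array against 8.36 to 11.08 in the other 10.

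Gata6, the only GATA factor analysed, lay between 9.83 and 11.34 on all 11 arrays and was not called. The paired subunits Gatad2a and Gatad2b (p66 alpha and p66 beta) of the NuRD chromatin complex, which share only letters with it, had calls in opposite directions on centred values. Gatad2a read 10.31 and 10.06 in the arrays labelled Ets1/2 null and 10.69 to 11.48 elsewhere. It differed by -1.20 ± 0.17 from wild type (adjusted p = 0.0017), -1.02 ± 0.17 from Ets1 null (0.0033) and -0.76 ± 0.17 from Ets2 null (0.0103), on both scales. Of its 4 other probe sets 3 had the same sign against wild type, and 2 of these were called. Gatad2b read 10.03 and 10.36 against 9.0 to 9.43 elsewhere, 0.91 ± 0.17 above wild type (0.0056), but on deposited values its difference was 0.19 (adjusted p = 0.40). On each array labelled Ets1/2 null it was above all 9 others. Foxred1, a mitochondrial complex I assembly factor, was lower than in wild type (-0.53 ± 0.17, adjusted p = 0.0464).

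Mef2c, a MADS-box factor of endothelium and muscle, had the largest difference from wild type of all members that were called. It read 10.997 and 10.07 in the arrays labelled Ets1/2 null, 9.29, 9.45 and 9.36 on Ets1 null arrays, 8.17, 7.80 and 8.09 on Ets2 null arrays and 6.14, 8.61 and 5.92 in wild type. Both labelled Ets1/2 null arrays were above all others, the Ets1 null arrays were above the 3 Ets2 null arrays, and 1 wild-type array lay above the Ets2 null ones. The difference from wild type was 3.65 ± 0.68 (adjusted p = 0.0052), called on both scales and without any 1 array. Against Ets2 null it was 2.51 ± 0.68 (0.0234, centred values only, lost in 3 of 11 fits that left out 1 array) and against Ets1 null 1.17 ± 0.68 (0.233). Ets1 null itself was 2.48 ± 0.61 above wild type, which was not called (adjusted p = 0.336).

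Mef2a, the brightest of the 4 Mef2 genes, differed by 0.95 ± 0.43 from wild type and was not called. Class IIa HDACs, which hold MEF2 in check, and the kinases around them were all measured (12 of 12). Against wild type 4 were lower, all on both scales, and 1 higher, where 12% of all genes were lower on both scales and 16.4% higher, with a median of -0.45 against 0.11 over all genes. The lower ones were Hdac4 (-0.82 ± 0.23), Hdac7, which is required for vessel integrity in mouse embryos (-1.83 ± 0.21, adjusted p = 0.00075), Prkd2 (-0.96 ± 0.31) and Map2k5, the kinase above ERK5 (-1.23 ± 0.14). Hdac7 read 8.55 and 8.28 in the labelled Ets1/2 null arrays and 9.64 to 10.47 in the other 9, which did not overlap. Prkd3 was the higher one (1.06 ± 0.29, centred values only).

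Sox4, the brightest Sox gene, lay between 11.76 and 13.05 on all arrays and was not called. Sox21 was 0.62 ± 0.14 above Ets1 null (adjusted p = 0.0117) and 0.56 ± 0.14 above Ets2 null (0.0157) in the arrays labelled Ets1/2 null, from 8.82 and 8.81 against 8.15 to 8.29 and 8.03 to 8.39. Its wild-type values were 8.47 to 8.52, with no call against them on centred values. On deposited values the differences from Ets1 null and Ets2 null turned to -0.15 and -0.14. Sox21 was called lower than in wild type on that scale (-0.40, adjusted p = 0.0356). Sox13 was 0.61 ± 0.19 above wild type (0.0428) and at -0.11 on deposited values.

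Prrx1, a homeobox gene of mesenchyme, was 1.47 ± 0.37 above Ets1 null in the arrays labelled Ets1/2 null (adjusted p = 0.0184, centred values only), with 12.46 and 12.70 against 11.66, 10.76 and 10.90. Its wild-type values of 11.33 to 12.45 and Ets2 null values of 11.71 to 12.23 came without a call, and of its 4 other probe sets 2 were called above Ets1 null as well. Prrx2 and the dim Meox1 were not called in any comparison on centred values. On deposited values Meox1 was called lower in the arrays labelled Ets1/2 null than in wild type (-0.59), Ets1 null (-0.48) and Ets2 null (-0.58). Fibroblast markers (11 of 14 measured) had a mean signal of 9.60 to 10.99 in the labelled Ets1/2 null arrays, 8.89 to 9.81 on Ets1 null arrays, 9.54 to 10.42 on Ets2 null arrays and 9.67 to 10.10 in wild type, and smooth muscle and pericyte markers (11 of 13) 8.78 to 9.78, 8.39 to 9.16, 8.53 to 9.27 and 8.35 to 9.47. Their part in the Prrx1 difference was not tested.

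Several positional genes set the Ets2 null arrays, all male, apart from most others. Epithelial and mesothelial markers (4 of 9 measured) had a mean signal of 9.41 to 9.51 in the arrays labelled Ets1/2 null and 9.66 to 10.10 on Ets1 null arrays. On Ets2 null arrays it was 7.87 to 8.24, inside the wild-type range of 7.22 to 9.59. The fibroblast and smooth muscle ranges of Ets2 null, given above, overlapped those of every other group. Against Ets2 null, the arrays labelled Ets1/2 null were higher in Msln (4.31), Acta2 (3.71), Col1a1 (3.43) and Col1a2 (2.27) and lower in Dpt (-4.16). Their adjusted p-values were 0.00234 to 0.0349, Msln and Col1a2 on centred values only. The other measured epithelial, smooth muscle and fibroblast markers were not called on centred values, such as Rgs5 (-4.26), Fbln1 (-2.70) and Tagln (0.58). Among endothelial markers, Eng (-2.26, adjusted p = 0.0187) and Plvap (-2.48, 0.0271) were called lower and Cav1 (2.40, 0.00167) higher, on both scales. The other measured endothelial markers were not called on centred values. The leukocyte markers Csf1r (0.67) and Cd3e (0.86) were called higher, on centred values only, and 30.3% of all genes were called. The part of other cell types in the differences of Tbx3, Foxd1, Foxf2 and the Hox genes was not tested. Tbx3, a limb and conduction-system factor, read 4.86 and 5.00 in the arrays labelled Ets1/2 null, 4.81, 5.19 and 6.27 on Ets1 null arrays, 8.53, 9.07 and 6.99 on Ets2 null arrays and 8.53, 5.42 and 5.13 in wild type. The high wild-type array was the male one. The difference of the arrays labelled Ets1/2 null from Ets2 null was -3.27 ± 0.99 (adjusted p = 0.0346), and it was -0.01 (0.995) once sex was in the model.

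Foxd1, a stromal forkhead gene, had the opposite order, at 9.31 and 6.99 in the arrays labelled Ets1/2 null, 8.36, 8.44 and 9.65 on Ets1 null arrays, 5.24, 4.85 and 4.50 on Ets2 null arrays and 6.02, 8.33 and 8.41 in wild type. Its difference from Ets2 null was 3.29 ± 0.84 (adjusted p = 0.0185), and 0.94 (0.660) with sex in the model. Without the first labelled Ets1/2 null array it was not called (adjusted p = 0.134). Foxf2, a pericyte and mesenchymal forkhead gene, was 2.10 ± 0.45 above Ets2 null (0.0084), from 7.33 and 7.54 against 5.99, 4.77 and 5.24, and 1.07 (0.377) with sex in the model. Foxf2 also came nearest to a call in Ets2 null against wild type, at -2.21 ± 0.40 (adjusted p = 0.0574). Tbx3 and Hoxc6 were higher in all 4 male arrays than in all 7 female arrays, and Foxa2, Foxd1 and Foxf2 lower in all 4, as were 2.46% and 2.12% of all genes.

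With sex in the model no member was called against Ets2 null (0, against 23 without it), and 261 of all genes were, against 3336. Only 1 group besides Ets2 null holds a male array, so sex and Ets2 loss can hardly be told apart in these data. Under that model, whose term for sex rests on 1 wild-type array, the differences were -1.44 for Id1 (adjusted p = 0.101), -1.62 for Klf16 (0.107), 0.41 for Foxo1 (0.736) and 0.24 for Hoxa3 (0.876), none of them called. The arrays labelled Ets1/2 null and Ets1 null were all female. Against Ets1 null, 15 of the members were called with sex in the model and 16 without, and against wild type 16 and 17. Of all genes, 27.6% and 28.7% were called against Ets1 null, and 21.5% and 28.3% against wild type.

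**Figure D5:**
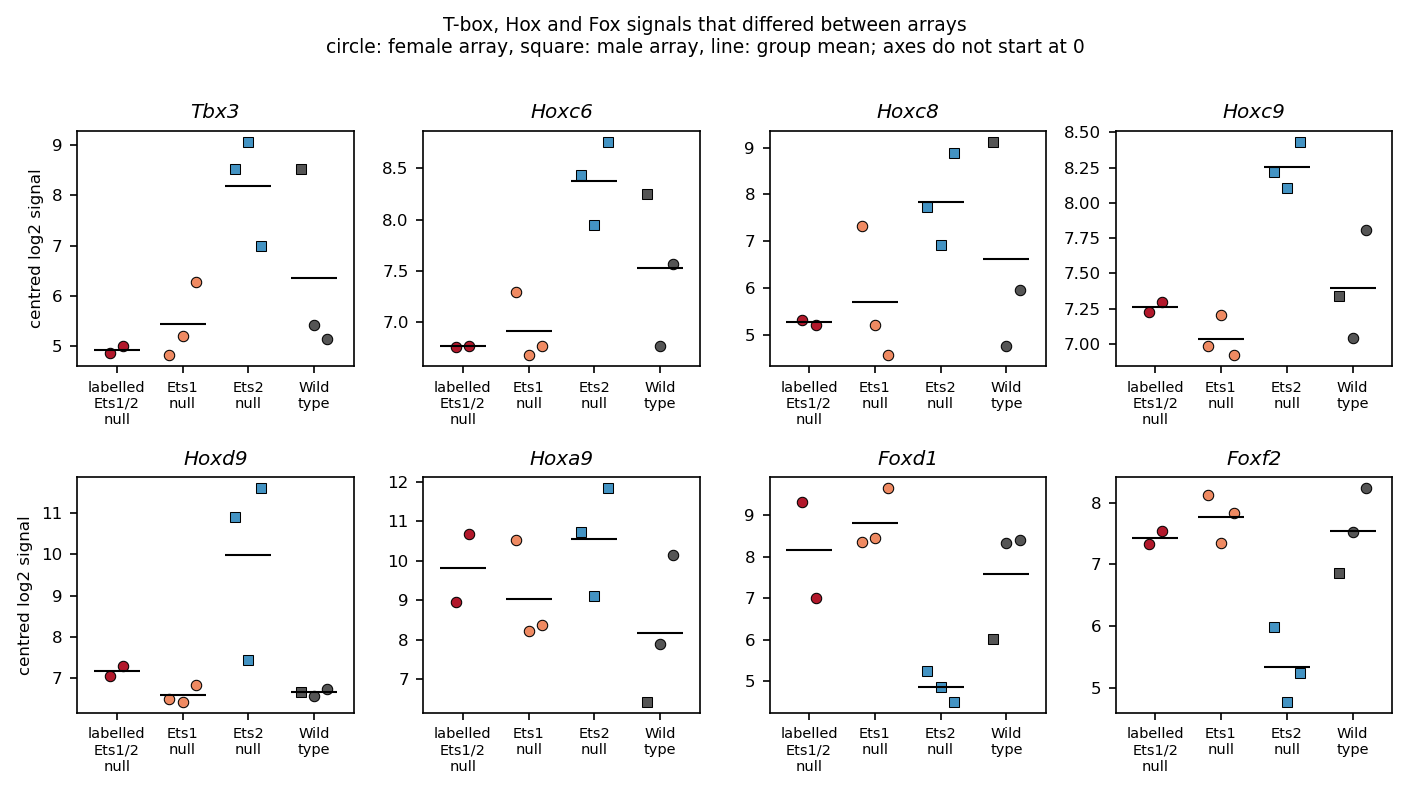
Centred log2 signals (vertical axes, not starting at 0) of 8 T-box, Hox and Fox genes on 11 arrays, with circles for female arrays, squares for male arrays and a line at each group mean. Tbx3 is near 5 in both arrays labelled Ets1/2 null and between 6.99 and 9.07 in Ets2 null, and Foxd1 is below 6 in the 3 Ets2 null arrays.

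Genes of all 4 Hox clusters were measured. In the HoxA cluster on chromosome 6, Hoxa3, an anterior gene, read 10.18 and 10.63 in the arrays labelled Ets1/2 null, 8.79, 9.30 and 9.15 on Ets1 null arrays, 7.99, 7.44 and 8.99 on Ets2 null arrays and 6.94, 8.64 and 9.29 in wild type. Both labelled Ets1/2 null arrays were above the others, by 2.12 ± 0.64 against wild type (adjusted p = 0.0371) and 2.26 ± 0.64 against Ets2 null (0.0273), on centred values only. With sex in the model the first was 1.44 (0.0632). Hoxa7 was lower than in Ets1 null (-1.27 ± 0.40, 0.0403, both scales), at 8.23 and 8.86 against 9.70 to 9.99. Hoxa2, the lowest-numbered gene measured, was not called, and Hoxa10, the highest, spread from 6.60 to 10.78 within the Ets2 null arrays, so that its 3.17 ± 1.24 against wild type was not called (0.219).

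In the HoxC cluster on chromosome 15, Hoxc6 and Hoxc9 were lower in the arrays labelled Ets1/2 null than in Ets2 null, with differences of -1.61 ± 0.40 (adjusted p = 0.0164) and -0.99 ± 0.22 (0.0099), on both scales. Hoxc6 read 6.76 and 6.77 against 8.43, 7.95 and 8.76, and Hoxc9 7.23 and 7.30 against 8.22, 8.11 and 8.43. Hoxc8 went with them in level, at 5.32 and 5.21 against 7.72, 6.92 and 8.89, but its wild-type arrays spanned 4.75 to 9.13 and it was not called (0.141). Hoxc4 was not called either (-1.04 ± 0.45, 0.112).

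The HoxD cluster on chromosome 2 was represented by Hoxd9, at 7.05 and 7.29 in the arrays labelled Ets1/2 null, 6.43 to 6.83 on Ets1 null arrays, 10.89, 7.43 and 11.60 on Ets2 null arrays and 6.58 to 6.74 in wild type. All 3 Ets2 null arrays were above the other 8, the second by little. Its 3.32 ± 0.86 in Ets2 null against wild type was not called (adjusted p = 0.107), although the F test over the 4 groups was passed (0.0383). In the HoxB cluster on chromosome 11 none of 6 genes was called on centred values, from Hoxb2 (-0.02 against wild type) to Hoxb9 (adjusted p = 0.239). Of all genes, 42.6% were called in the arrays labelled Ets1/2 null against at least 1 other group. On deposited values Hoxb2 (-0.74), Hoxb6 (-2.11) and Hoxb9 (-1.72) were called lower there than in wild type. Hoxb2 and Hoxb6 were also called lower than in both single nulls, and Hoxb9 than in Ets2 null. Hoxb6, the brightest Hox gene, read 9.96 and 7.91 in the labelled Ets1/2 null arrays and 9.45 to 11.21 in the others. Of 9 measured TALE cofactors, which bind DNA beside Hox proteins, 0 were called against wild type (median -0.01), where 28.3% of all genes were. On deposited values, where the median over all genes was -0.61, Pbx3, Meis1, Pknox1 and Tgif2 were called lower.

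Tbx18, a pericyte and epicardial factor, and Tbx20, a heart factor, were not called in any comparison. Tbx20 ranged from 3.47 to 11.21 and spread widely within each group, with 9.01 and 4.70 in the arrays labelled Ets1/2 null, 3.47, 9.69 and 9.06 on Ets1 null arrays, 9.07, 9.51 and 6.65 on Ets2 null arrays and 11.21, 9.92 and 5.31 in wild type. Tbx18 read 11.23 and 9.25, 8.95 to 9.59, 9.58 to 10.79 and 9.30 to 10.33 in the same groups.

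The interaction asks whether the effect of Ets2 loss with Cre in cells without Ets1 differed from that in cells with Ets1. Of the members, 5 passed (5.68%, against 14.5% of all genes). Only wild-type cells lacked the floxed Ets2 allele, so any effect of that allele does not cancel in this term. Id1, Id2 and Klf16 were called on both scales (8.44% of all genes), all with values below 0 (1.51% of all genes had such calls above 0 and 6.94% below): Id2 at -2.88 ± 0.48 (adjusted p = 0.0071), Id1 at -2.19 ± 0.36 (0.0062) and Klf16 at -1.50 ± 0.36 (0.0249). All 764 genes called below 0 on centred values were also called on deposited values, so the second scale adds nothing for these 3. Id1, Id2 and Sox21 passed in all 11 fits that left out 1 array, while Klf16 was lost in 5 and Gatad2b in 6. For Id2, signals in both single nulls lay above wild type and in the arrays labelled Ets1/2 null near it; for Id1 and Klf16, only the arrays labelled Ets1/2 null stood apart. Sox21 (0.86 ± 0.19, adjusted p = 0.0181) and Gatad2b (0.98 ± 0.23, 0.0257) had values above 0 and were called on centred values only. With sex in the model Id1 (-1.82, adjusted p = 0.0411) and Id2 (-3.24, 0.0231) passed, and the other 3 had adjusted p-values of 0.0704 to 0.0894. Mef2c, at 0.03 ± 0.92, was not called: its single-null differences of 2.48 and 1.13 sum to nearly the 3.65 of the arrays labelled Ets1/2 null.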

How the data were processed

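The authors deposited log2 expression values for 20523 Affymetrix probe sets in 12 columns, and the submitters' processing notes name RMA; no further step is given in the sources used here. Groups follow the titles and genotypes, since descriptions of Ets1 null and Ets2 null arrays call that gene wild type. The third column labelled Ets1/2 null was left out (equal to the mean of the others, tolerance 1e-06, in 20521 probe sets). Probe sets were named from the platform annotation: 18824 with 1 symbol, 549 with several and 1150 with none, the last 2 kinds not used. The brightest probe set stood for each of 11015 genes, 41 of the 88 members having several, and 32 members lay in the lower quartile of all genes. No filter on low values was applied. The number of arrays limits the precision.

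Arrays were centred on their medians, and limma 3.58.1 (R 4.3.3) fitted 1 mean per group over all genes and 11 arrays, with two-sided moderated tests, an F test and Benjamini-Hochberg adjustment, called under 0.05. On simulated data for the labelled Ets1/2 null against wild-type comparison, with 50 genes changed at each size, 94% of log2 changes of 3, 72% of 2, 48% of 1 and 2% of 0.5 were recovered. For the interaction 70%, 60%, 10% and 0% were recovered in the same order. Far fewer genes changed in the simulation than the 28.3% called in the data against wild type, so these shares need not hold for the data. Alternatives were the deposited values, quantile normalization, the mean of probe sets, only the groups compared, a replicate block, a filter on dim genes, a term for sex, all columns and each array left out. Sex was taken from Eif2s3y above 6. Tables and plots used Python 3.11.15, pandas 2.3.3, numpy 2.4.6 and matplotlib 3.10.9.

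Named genes were every called member, a list of vascular members, the brightest of each family, the first and last gene of each Hox cluster and called genes of related lists. The members and lists were chosen with earlier results of these data known. One gene of these families is not reported here.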

Additional observations from a re-analysis of the deposited data

Results flagged for a closer look

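The limma test of the interaction called 5 members (5.68%, against 14.5% of all genes, at an adjusted p under 0.05 over all genes). It compares the effect of Ets2 loss with Cre between cells without and with Ets1. Only wild-type cells lacked the floxed Ets2 allele, so any effect of that allele does not cancel. The values were -2.88 for Id2, -2.19 for Id1, -1.50 for Klf16, 0.98 for Gatad2b and 0.86 for Sox21 on the log2 scale. The term rests on the 2 arrays labelled Ets1/2 null, in which 3 of 4 Ets1 probe sets read higher than in Ets1 null. Klf16 was lost in 5 and Gatad2b in 6 of 11 fits that left out 1 array. Gatad2b and Sox21 were not called on deposited values.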

How the results depend on the processing

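Values as deposited called 31, 28 and 37 members for the arrays labelled Ets1/2 null against wild type, Ets1 null and Ets2 null, 20 for the interaction and 38 for the F test, against 17, 16, 23, 5 and 19 after centring. Of all genes, 45.9%, 44.5%, 46.3%, 31.6% and 48.1% were called on deposited values in the same order. After centring these shares were 28.3%, 28.7%, 30.3%, 14.5% and 30.6%. On deposited values the differences of Hey1 turned to -0.25 (against wild type) and -0.23 (Ets1 null), of Sox13 to -0.11 (wild type), of Sox21 to -0.15 (Ets1 null) and -0.14 (Ets2 null) and of Foxj3 to -0.069 (Ets2 null). The mean of probe sets turned Foxj3 to -0.34, -0.15 and -0.60 against wild type, Ets1 null and Ets2 null. A fit to only the groups compared left 5 members against wild type. A term for sex left 0 against Ets2 null, 2 for the interaction and 11 for the F test. All 12 columns called 38 against Ets2 null, 8 for the interaction, 37 for the F test and 2 in Ets2 null against wild type. Replicate numbers did not pair the arrays (same-number correlations of deviations -0.325 to 0.104 over 15 pairs), and the replicate block called 13, 12 and 19 members against wild type, Ets1 null and Ets2 null, 3 for the interaction and 13 for the F test. Of all genes the block called 22.9%, 22.9%, 24.5%, 8.91% and 20.7% in that order. Leaving out 1 array gave 8 to 18, 9 to 20 and 10 to 24 members, 3 to 8 for the interaction, 12 to 24 for the F test and 0 to 1 for either single null. In all 11 leave-outs 6 of 17 calls held against wild type, 6 of 16 against Ets1 null, 5 of 23 against Ets2 null and 3 of 5 for the interaction. Against wild type Foxl1, Foxo3 and Klf9 were not called without either array labelled Ets1/2 null, nor Foxk2 without the second (adjusted p = 0.115). The lone remaining array is then assumed to vary like the other groups. The cause of these changes was not tested, apart from the fewer arrays in the leave-outs.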
